A study of Drosophila melanogaster with 2 samples.

Results

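The gene mtd (mustard, FBgn0013576) was examined for chromatin immunoprecipitation peaks of the zinc finger protein CG15073 at its internal transcript starts. It was chosen by its measured peaks in these lists, so its counts, signals and ranks are given as a description, with no test. Members were all peaks whose summit lay inside mtd or within 2 kb of it: 3 of the 1445 peaks in the list thresholded by the irreproducible discovery rate (IDR, a measure of how well peaks repeat between replicates), 25 of 23030 in the relaxed list made from both replicates pooled, 33 of 30000 in the relaxed list of replicate 3 and 21 of 30000 in that of replicate 4. A relaxed list holds many weak peaks and serves as input to the IDR step. All 3 IDR peaks lay inside the gene, each within 500 bp of the start of a different internal transcript, and the strongest of them ranked 20 among the 1445. As background, 709 of the 1445 IDR peaks lay within 500 bp of a protein-coding start.

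The flies carried a transgene for CG15073 with GFP (eGFP) fused at its C-terminus, and chromatin was precipitated with an antibody against GFP. The material was whole embryos of mixed sex aged 0 to 24 h, sonicated to fragments of 200 to 800 bp. There was 1 group of 2 biological replicates, numbered 3 and 4, so no condition could be compared, and a control library was not analysed here. The protein measured is the tagged copy from 1 transgenic line, averaged over all embryonic tissues and ages collected.

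As background, mtd is the fly counterpart of the mammalian oxidation resistance gene OXR1. Its products share a C-terminal TLDc domain, found in proteins linked to protection against oxidative damage and to the vacuolar proton pump, and the long products also carry a LysM domain. In flies mtd has been linked to the response to bacterial infection and to endosomal sorting by retromer. Genes of this kind use several promoters along their length, so the choice of start sets how much of the N-terminal part is made.

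In dm6 mtd spans chr3R:5270116-5350443 on the minus strand, 80328 bp. The annotation gives 23 protein-coding transcripts from 11 distinct starts, which form 9 start groups when starts within 500 bp of each other are joined. The coding sequence ranges from 576 to 4032 bp, or 192 to 1344 residues, and 3 exons are shared by all transcripts. The starts fall into an upstream set that makes long products and a downstream set (RI, RC, RQ with RH, and RA) that makes products of 192 to 267 residues.

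Short stretches of the mtd strand are shown for the 3 IDR peaks and for the start nearest to each, to show the sequence next to each summit and at each start. They were read from the Release 6 reference sequence, 5′ to 3′. In the first, capitals mark a 7-base run shared with the second and the start codon of RC. In the second, capitals mark the same run in the opposite orientation. In the third, the capital is the summit base, and in the last 3 it is the annotated start base.
Peak at RC, chr3R:5282875-5282904: ccgCCACTGTtggccatcagcaacATGtgg
Peak at RI, chr3R:5287508-5287537: ctcgaatcgtcACAGTGGacggacggaccg
Peak at RM, chr3R:5299192-5299221: aggttcctcaagtcAacgctagggtattct
Start of RC, chr3R:5283365-5283394: gagagtccaataagtTtcagtcggtcgagc
Start of RI, chr3R:5287306-5287335: agctatggttggcttTttagttttcgcaac
Start of RM, chr3R:5298763-5298792: aaaactgatgagcccGcagttttaacgata

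The strongest mtd peak, chr3R:5282715-5283141, had its summit at 5282930, 67.5 kb downstream of the most upstream mtd start. Its deposited signal, the strength assigned by the authors' peak caller on a scale that is not stated, was 1301 in the pooled list, 949.7 in replicate 3 and 377 in replicate 4. The corresponding ranks were 20, 18 and 25, so the peak stood near the top of every list. The replicate summits were 7 bp apart. This summit lay 449 bp downstream of the RC start, in the 5′ UTR of RC's first exon and 50 bp upstream of its first coding base. For 19 other transcripts the same position is intronic, and it lies outside the remaining 3. RC encodes 267 residues, and the next start, that of RQ and RH, lay 1828 bp farther downstream.

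The second peak, chr3R:5287277-5287668, had its summit at 5287495, 175 bp upstream of the RI start. Its signal was 616 in the pooled list, 399 in replicate 3 and 224 in replicate 4, with ranks of 50, 49 and 52. The replicate summits were 3 bp apart. The position is intronic in 18 transcripts and lies outside the other 5. RI encodes 213 residues, so this peak and the one at RC both stood at starts of short products, 4565 bp from each other.

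The third peak, chr3R:5299002-5299411, had its summit at 5299207, 430 bp upstream of the RM start and 11712 bp from the summit at RI. Its signal was 71.7 in the pooled list, 38.5 in replicate 3 and 32.2 in replicate 4. Here the ranks were 1251, 1663 and 1094, and the replicate summits were 45 bp apart. The peak at RM was thus near the lower end of the IDR list, whose lowest signal was 66.5, and among the 1445 strongest peaks of each replicate it recurred in replicate 4 only. RM encodes 1012 residues, and the position is intronic in 15 transcripts.

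The order RC, RI, RM held in both replicates and in the pooled list. The peak at RC had 2.11 times the signal of that at RI in the pooled list, 2.38 times in replicate 3 and 1.68 times in replicate 4. In the pooled list the signal at RC was 18.2 times that at RM, and that at RI was 8.60 times. Against the median of the IDR list, 96.5, the peaks stood at 13.5, 6.39 and 0.743 times, so that at RM was below the median. The deposited −log10 q-value did not separate the 2 strong peaks, since both held the highest value of the list, 3.24, together with a total of 869 of the 1445 IDR peaks. That at RM was 2.36.

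Whether the replicate signals share a scale is not stated in the sources used here, and replicate 3 was higher at each of the 3 peaks. Its ratio to replicate 4 was 2.52 at RC, 1.78 at RI and 1.20 at RM. A match was the strongest replicate peak within 200 bp of an IDR summit, so neighbouring IDR peaks could share the same match. The replicate peaks so paired could also be different sites. Over the 1384 IDR peaks matched in each replicate the median ratio was 1.55, with quartiles of 1.19 and 2.03, and over the strongest 100 it was 1.82. The ratio at RC therefore lay above the upper quartile, and that at RM beside the lower one. The median distance between replicate summits was 32 bp over all these peaks and 10 bp over the strongest 100, against 7, 3 and 45 bp at mtd.

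**Figure D1:**
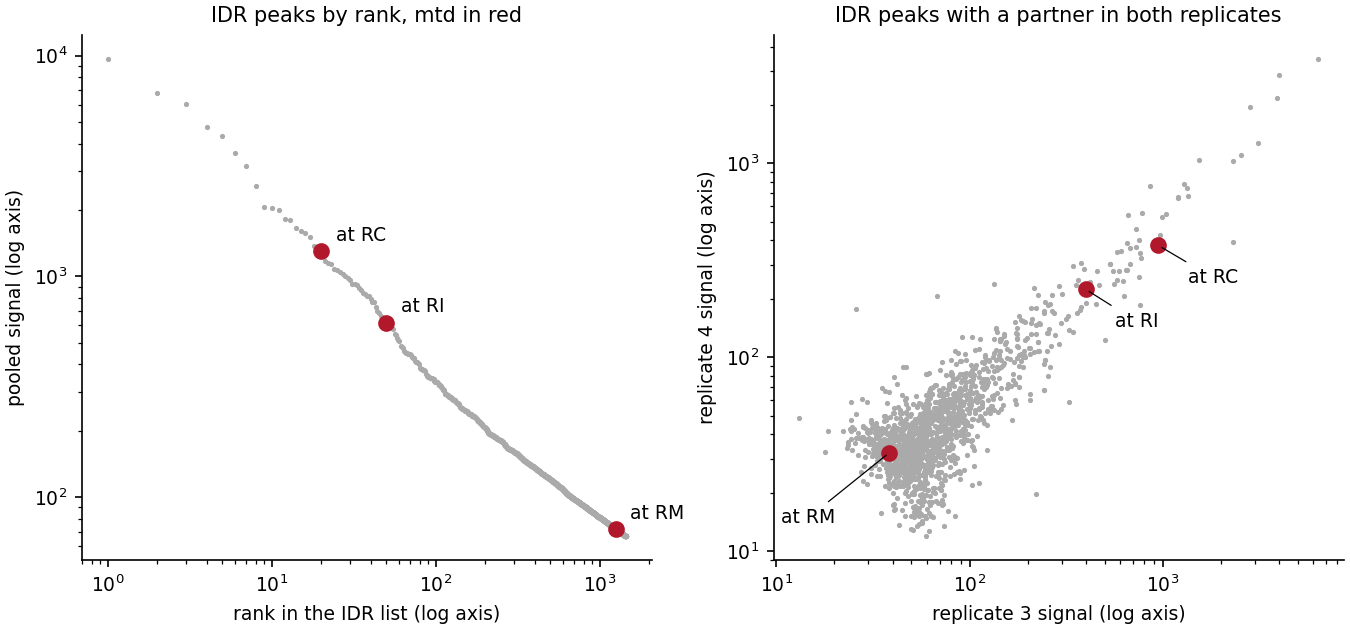
Left, pooled signal of the 1445 IDR peaks (grey points) against their rank, both axes logarithmic. Right, replicate 4 against replicate 3 signal of the 1384 IDR peaks matched in each, both axes logarithmic. The mtd peaks are red: those at RC and RI rank 20 and 50, and that at RM ranks 1251.

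Across the 9 start groups, IDR summits lay within 500 bp of 3. In the pooled list and in each replicate list the number was 7, but apart from RM, RI and RC those summits were weak. At the most upstream group (RR, and 433 bp downstream of it RX, RT, RW and RS, which make up to 1180 residues), a peak of signal 21.2 in replicate 4 was the only one within that distance. At the start of RN, RY, RJ, RV, RP, RB and RU, which yields the longest products, the pooled signal was 22.7, 125 bp downstream. Replicate 3 had a peak of 13.1 at 138 bp upstream, and replicate 4 had a peak of 12.0 at 333 bp downstream. These summits were separate sites when joined within 200 bp, so the pooled peak had no partner in either replicate. The start group of RG, RK and RO had a highest pooled signal of 39.8, 13 bp upstream of the RG start, with 19.9 and 21.6 in the replicates. None of these reached the IDR limit.

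The remaining start groups differed in the same way. At RQ and RH, between the peak at RC and the last start, the pooled signal was 24.9, with 16.7 in replicate 3 and 13.4 in replicate 4. At RA, the most downstream start, it was 26.1, with no summit within 500 bp in either replicate list. A replicate 4 peak of 19.4, joined to the same site, lay 666 bp downstream of that start. At RF and RAA a summit of signal 22.3 in replicate 3 lay exactly 500 bp downstream, and the pooled list had none. A weak pooled peak of signal 27.8 and rank 12062, with no partner in either replicate, also lay 327 bp upstream of the RC start, at 5283706. The 4 start groups of short products thus held the 2 strongest pooled mtd peaks and 3 weak ones.

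**Figure D2:**
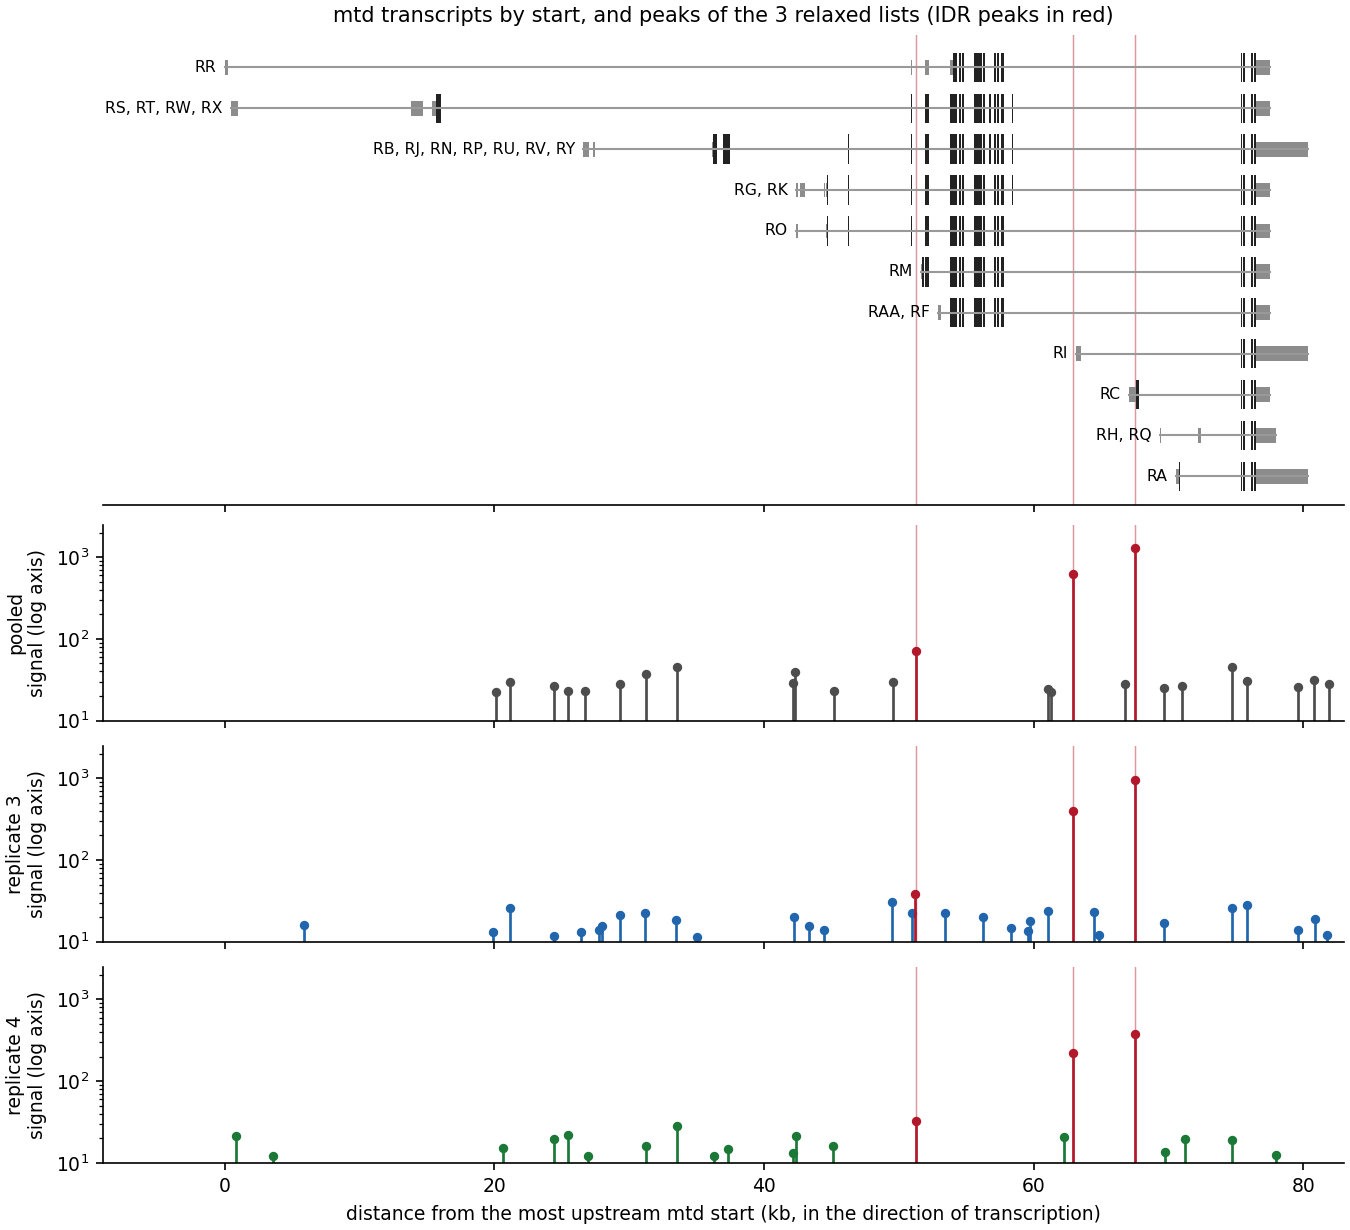
Top, the mtd transcripts grouped by start, with coding exons as tall black boxes and untranslated parts as low grey boxes, against distance in kb from the most upstream start. Below, the signal (log axis) of every mtd peak in the pooled, replicate 3 and replicate 4 lists, with the 3 IDR peaks in red. Those at RI and RC stand out in each list. That at RM is 71.7 in the pooled list, 38.5 in replicate 3 and 32.2 in replicate 4. The next mtd peak of each list is 45.4, 30.3 and 28.3. Starts upstream of RM carry pooled signals of up to 39.8.

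The other 22 pooled peaks of mtd had signals of 22.5 to 45.4, with a median of 27.9, beside 27.7 for all pooled peaks outside the IDR list. The highest pooled signal outside the IDR list was 66.5, so the nearest mtd peak below the limit, at 45.4, was well under it, and the weakest above it was that at RM, at 71.7. That peak of 45.4 lay in an intron at 5316897, 6950 bp downstream of the RN start, with 18.3 in replicate 3 and 28.3 in replicate 4. The next, of 44.6 at 5275742, lay inside the nested gene CG31538, with 25.7 and 19.1 in the replicates. A further intronic peak of 37.0 at 5319198 had 22.6 and 15.9. These were the strongest weak sites that both replicates shared away from an mtd start.

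By position, 20 of the 25 pooled summits were intronic, 2 were in a 5′ UTR, 1 was in a 3′ UTR and 2 lay downstream of the gene. Within 500 bp of an mtd start were 9 of the 25. No share over all pooled peaks or of the gene's length was set beside these position counts, so nothing is read from them. Joined within 200 bp over all lists, the peaks formed 47 sites, of which 9 had a peak in both replicates; 15 appeared in replicate 3 alone and 8 in replicate 4 alone. Of the 33 replicate 3 members 9 had a replicate 4 summit within 200 bp, beside 28.6% of all replicate 3 peaks, and of the 21 replicate 4 members 10 had a replicate 3 summit, beside 27.0% of all replicate 4 peaks. The first share was close to the background and nothing is read from the second, as the gene was chosen for its peaks. Peaks per 100 kb of mtd numbered 3.56 in the IDR list, beside 1.08 over the chromosome arms, 29.6 in the pooled list beside 17.2, 39.1 in replicate 3 beside 22.4, and 24.9 in replicate 4 beside 22.4.

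Other IDR summits lay beyond both ends of the gene. Whether their distances from it are unusual for the spacing of this list was not tested. The nearest one beyond the gene's 5′ end was 11521 bp upstream, with signal 70.7, and the nearest beyond its 3′ end was 54579 bp downstream, with signal 226. Neither nested gene had an IDR summit inside it. CG31538 held 1 pooled summit, described above. Tim17b1, a mitochondrial import gene on the opposite strand, held 1 of signal 29.4, with a summit in replicate 3 of 30.3 and none in replicate 4. The IDR summit at RM stood at -938 bp from the Tim17b1 start, where negative is upstream. It was thus nearer to the RM start, but which of these starts it belongs to was not tested. The downstream neighbour Hph, which encodes a prolyl hydroxylase of the hypoxia response and lies 609 bp away, had a pooled signal of 47.6 at a start, with 25.1 in replicate 3 and 15.4 in replicate 4. The upstream neighbour CG11999, 3274 bp away, had none in any list.

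Set against the genome, an own start with an IDR summit in reach of 500 bp was found for 941 of 13945 protein-coding genes, 6.75%. Among the 2106 genes with 2 or more start groups, IDR summits lay at 2 or more groups in 22, or 1.04%. Among the 648 with 3 or more start groups, 3 genes, or 0.463%, had IDR summits at 3 of them, namely mtd, Rtnl1 and Ptpmeg2, a tyrosine phosphatase gene. No gene had more than 3. A count of 3 or more IDR summits inside the gene or within 2 kb was found in 72 of 13945 genes, 0.516%. As mtd was chosen for this pattern, these shares are its background and not a test. Genes with as many starts are rare: 4 had 9 or more start groups, and of these mtd alone had IDR summits at 2 or more, while 2 had none. Of the 307 genes over 50 kb, 17 had 3 or more IDR summits.

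The genes most like mtd were those with IDR summits at 2 or more own start groups, at least 1 of them over 1000 bp downstream of the gene's first start, ordered by the signal of the strongest such peak. The rule was met by 18 other genes, and mtd stood second of the 19 by strongest signal. Nearest by log2 difference in pooled signal were fray, a Ste20-family kinase gene, at -0.41, and Sox102F, a Sox transcription factor gene, at -0.51. Adk2 stood at -0.76, ph-p, a Polycomb group gene, at -1.68, and Rtnl1, a reticulon gene, at -2.28. These are differences from mtd in 1 value per gene over the same 2 libraries.

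In fray the IDR peaks at own starts were 981 in the pooled list, 678 and 301 in replicates 3 and 4, and 172 with 79.8 and 97.2. In Sox102F they were 914, with 648 and 281, and 83.4, with 58.2 and 30.7. Both therefore paired a strong peak with one several times weaker, whereas mtd had 2 peaks above 600 in the pooled list and 1 of 71.7. In ph-p the pooled signals were 405 and 238, and in Rtnl1 they were 268, 137 and 80.2. In Adk2 they were 768 and 74.4, and the weaker peak matched the same replicate 4 peak as the stronger, at 238. The fray peak of 172 was also at the start of CG7694. Not all IDR peaks of these genes were at own starts. IDR summits inside the gene or within 2 kb numbered 3 in fray, Adk2 and Rtnl1, 2 in Sox102F and 4 in ph-p.

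Members of related gene lists were set beside mtd, each against the background of 6.75%. Of the 3 genes with a TLDc domain, mtd and sky, a Rab GTPase-activating protein gene of synaptic vesicle traffic, had an IDR summit at a start (66.7%), and CG5149 had none. As mtd was chosen for its peaks, it supplies 1 of these 2 genes by that choice, and nothing is read from the share. The sky peak had a signal of 69.0 and rank 1342, 339 bp upstream of the start, with replicate ranks of 2437 and 875. Among the 33 V-ATPase genes 1 had such a peak (3.03%): Vha100-2, a subunit of the membrane sector, at 111, shared with the start of Vti1b. None of the 3 retromer genes did. Of 15 genes of the Imd pathway, which answers to Gram-negative bacteria, 1 did (6.67%), the adaptor gene imd, at 138, shared with Dp1. Of 18 matched oxidative stress genes 1 did (5.56%), Sesn, which encodes sestrin, at 165, shared with CG46429. The V-ATPase, retromer, Imd and oxidative stress shares rest on at most 1 gene each, so nothing is read from them beside the background.

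Relative to their starts the 3 mtd summits were spread widely. Over the 709 IDR peaks that lie at a protein-coding start (500 bp or nearer), the median summit lay 140 bp upstream. The summit at RI, 175 bp upstream, was close to that, with 39.2% of peaks as far upstream or farther. The summit at RM, 430 bp upstream, was matched or passed by 4.94%. The summit at RC, 449 bp downstream, was among 8 peaks, or 1.13%, as far downstream or farther. The strongest mtd peak was therefore the one least typical in position. The annotated RC start had an Initiator sequence, TCAGTC, beginning 1 bp downstream of the start base, seen in the stretch printed above. An Initiator (TCAGTC or TCAGTT) was found within 15 bp of 4 of the 11 mtd starts and of 12.3% of 19607 protein-coding starts, on the gene's strand, and of neither the RI nor the RM start.

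**Figure D3:**
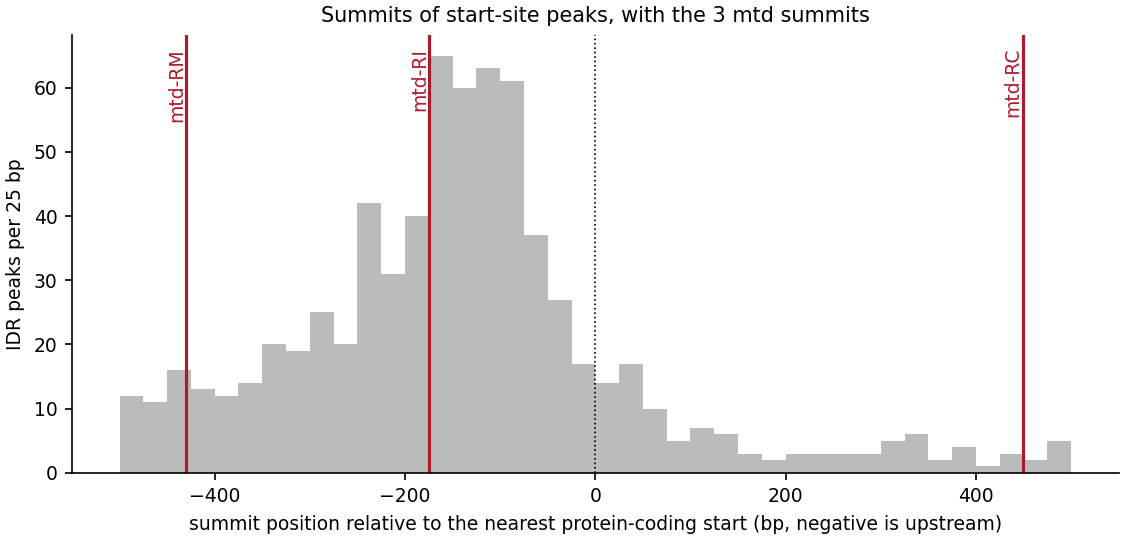
Summit position of the 709 IDR peaks at protein-coding starts (500 bp or nearer), in bp from the nearest start (x axis, negative is upstream), as peaks per 25 bp (y axis). Red lines mark the mtd summits at -430 (RM), -175 (RI) and 449 bp (RC), the last in a sparse part of the distribution, whose median is -140.

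The sequence from 100 bp before to 100 bp after each summit was compared with that around all IDR summits. GC content was 54.7% at RC, 49.3% at RI and 36.3% at RM, beside a median of 35.3% over IDR peaks, quartiles of 31.3% and 40.8%, and a median of 40.8% over the strongest 100. Both strong peaks were thus above the upper quartile. The E-box CANNTG was in all 3 windows and in 59.4% of IDR windows. Of the 3 windows that at RC alone held GAGAG, which was in 23.5% of IDR windows. It alone also held the BEAF motif, spelled CGATA (23.0%), and the Pho motif, spelled GCCAT (29.7%). An Initiator was in the RI window and in 16.9% of IDR windows. Neither the TATA box TATAAA, the homeodomain core TAATTA, the DREF site TATCGATA nor the Zelda site CAGGTA was in any of the 3. Each search took both strands, and these letters say nothing of which factors were bound.

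The longest runs shared by the windows at RC and RI were 7 bases long, and there were 6 of them. The run ACAGTGG, which reads as CCACTGT when taken from the other strand, was in 224 of the 1445 IDR windows, 15.5%, and in 41 of the strongest 100. The other 5 runs were in 3.05% to 14.1% of IDR windows and in 5 to 10 of the strongest 100. ACAGTGG was picked out of the 6 after these shares were seen, so it has no test. It was in 3.18% of 2890 flanking windows and in 2.25% of windows around 19607 protein-coding starts.

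With the mtd peaks left out, the share of windows that held the run fell with rank. The run was picked as the commonest in the strongest 100 peaks, so the shares down to rank 100 are not independent of that choice. It was 47.9% (23 of 48) for pooled ranks 1 to 50, 32% for 51 to 100, 25% for 101 to 200 and 19.3% for the 300 peaks down to rank 500. It was 10.8% for ranks 501 to 1000 and 10.4% for 1001 to 1445. Below the IDR limit it was 6.81% for ranks 1446 to 5000, 4.34% for 5001 to 10000 and 2.85% for 10001 to 23030. GC content, which was also higher in the strongest peaks, was not held fixed in these shares, and its part in them was not tested.

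**Figure D4:**
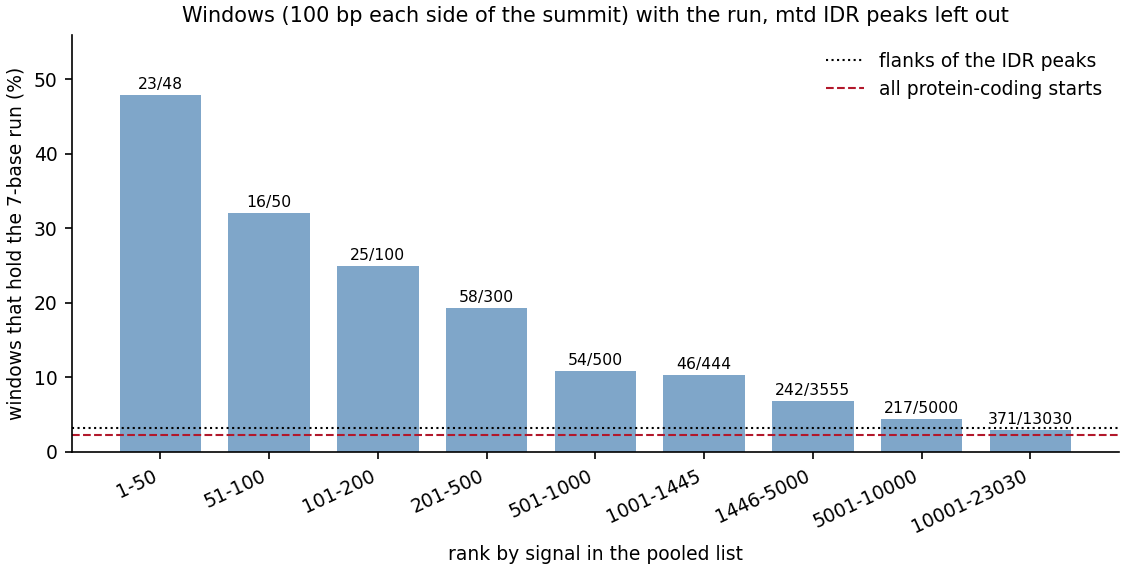
Share of windows (summit and 100 bp each side) with the 7-base run on either strand (y axis, percent, from 0) by rank in the pooled list (x axis), mtd IDR peaks left out, with counts above the bars. Lines give the shares in flanks of the IDR peaks (3.18%) and at all protein-coding starts (2.25%); the bars fall from 47.9% to 2.85%.

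In mtd the run was centred 32 bp downstream of the summit at RC, 18 bp upstream of the first coding base, and 28 bp upstream of the summit at RI. It was not in the window at RM, and no window of the 22 weaker pooled peaks held the whole run. In all, 11 copies were found in the 84328 bp of mtd and its flanks. Of these, 2 were centred within 100 bp of an IDR summit and 3 within 100 bp of a pooled summit, the added one being 98 bp from the weak summit at 5283706, so that it ran past the edge of that window. A total of 6 had no pooled summit within 500 bp. Most copies in the gene were therefore not at an IDR peak. The number of copies expected from base composition was not worked out, so nothing is read from the 11 found. Among the like genes the run was in the windows of the stronger Sox102F peak, the weaker ph-p peak and all 3 Rtnl1 peaks, and in none of those of fray and Adk2.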

How the data were processed

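Peak lists on dm6 were analysed for 2 biological replicates (numbers from the labels) and for both together. Per the deposited descriptions of the lists, each relaxed list was derived from a replicate's alignments, or both, with a further input file, and the IDR list from these lists. Each peak carries a deposited signal, used as the authors' own value to rank and describe peaks, and a deposited −log10 q-value. Not given in the sources used here are the aligner, the peak caller, the IDR threshold and the depth, so the depth behind each value is unknown. All 1445 IDR peaks were the strongest 1445 of the pooled list. Lists on dm3 were not used.

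Summits were placed against the Ensembl release 115 annotation (BDGP 6.54) and the Release 6 reference sequence with Python 3.11.15, numpy 2.4.6 and pandas 2.3.3; figures used matplotlib 3.10.9. Summits within 200 bp were 1 site, and a start was bound with a summit within 500 bp. The code was tested on simulated peaks. The alternatives tried were other flanks, start windows, groupings and joins, the stronger part of the IDR list, each replicate alone and ranking by q-value. No significance test was made. Named genes were mtd, its overlapping and adjacent genes, the 5 genes most like it and list members with an IDR summit at a start; Ptpmeg2 was added after its values were seen. The members, lists and motifs were chosen with earlier results of these data known. The oxidative stress list had 22 genes, of which 4 symbols did not match the annotation.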

Additional observations from a re-analysis of the deposited data

How the results depend on the processing

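Of 33 alternatives, 27 left the value within 1.5 times of that reported or, for a rank, within the spread of the replicate ranks, and 6 moved it. That spread was taken from the same replicate ranks that were judged against it, so for these ranks the label does not measure stability. With a start window of 250 bp instead of 500 bp, mtd kept 1 start group with an IDR summit, that of RI, and the genes with IDR summits at 2 or more start groups numbered 5 instead of 22. With 1000 bp they numbered 38, and with the stronger 722 IDR peaks 12. With those 722 peaks mtd itself had 2 sites and 2 bound start groups, as the peak at RM dropped out. A change from 3 to 2 was counted as within 1.5 times. Ranked by −log10 q-value the strongest mtd peak was at rank 1, tied with all 869 peaks at the highest value. With as many of the strongest peaks of a single replicate in place of the IDR list, its rank was 18 to 25, mtd had 2 to 3 sites and 2 to 3 bound start groups (2 without replicate 4, where the peak at RM dropped out), and genes with 2 or more bound start groups numbered 18 to 19. The number of pooled mtd sites was 23 to 25 in the alternatives tried. The limits are 2 replicates, an unknown depth, an unstated signal scale and no control analysed here. A weak or missing peak at a start is therefore no evidence that the protein is absent there, and in whole embryos cell types and ages cannot be told apart. No paired analysis was possible because there is 1 group.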
